A study of Mus musculus with 14 samples.

Results

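The data described here concern how the effect of losing Abcb11 on liver RNA differed between female and male mice. Abcb11 encodes the bile salt export pump of the hepatocyte's canalicular membrane. The 11 libraries used, of 14 in the series, were 3 of non-tumour liver from Abcb11-/- females, 2 of liver from wild-type C57BL/6J females, 3 of liver from Abcb11-/- males and 3 of liver from wild-type C57BL/6J males. All mice were 52 weeks old and labelled as C57BL/6J, and tumour libraries from knockout females were not used. For each gene the knockout effect was taken as knockout minus wild type on a log2 scale within each sex. The difference was the female effect minus the male effect, so a negative difference means that knockout minus wild type was lower in females than in males. The difference was described for all 16875 tested genes outside chromosomes X and Y, of 17389 genes tested and 54532 in the table. The design text speaks of 3 mice per group. The sources used here give no breeding scheme and no allele beyond Abcb11-/-. The female knockout tissue was labelled non-tumour, and the series also holds tumour tissue of such females, though the labels do not say whether from the same animals. The male knockout tissue was labelled as liver without that distinction, so sex and this choice of tissue cannot be told apart.

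The liver makes bile acids from cholesterol, secretes them through Abcb11 and recovers them from portal blood. Bile acids in excess repress their own synthesis through nuclear receptors and induce detoxifying enzymes and alternative exporters. Mouse liver also differs between the sexes: male pulses and the steadier female pattern of growth hormone act through the growth hormone receptor and STAT5 to set sex-biased genes, among them many cytochromes P450, sulfotransferases and major urinary proteins.

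The wild-type male libraries stood apart from the other 8. Levels are given as CPM, the count of a gene scaled to a common library total, with totals scaled by TMM. They held 15308 to 17520 genes with at least 1 count, against 18862 to 22414 in the other libraries, although library totals overlapped (14745140 to 19346354 counts over all 11). Malat1, a noncoding RNA retained in the nucleus, was at 556 to 828 CPM in knockout females, 1298 and 1698 CPM in wild-type females, between 602 and 810 CPM in the knockout males and between 128 and 180 CPM in the wild-type males. Srsf2, Pnn and Leng8, which were picked after their values were seen, were likewise highest in wild-type females and lowest in wild-type males. Neat1, picked with them, was not highest in wild-type females. Its group means were 1236 CPM in knockout females, 896 CPM in wild-type females, 1171 CPM in knockout males and 782 CPM in wild-type males. Its difference was -0.12 (edgeR adjusted p = 0.919). A daily clock score, taken as the average log2 level of evening genes such as Per2 less the average of morning genes such as Arntl, was 2.23 to 3.15 in knockout males and -2.75 to -1.68 in wild-type males. In females the score was -0.86, 2.64 and 4.38 in the knockouts and 0.91 and 0.45 in the wild types. Lymphocyte and antigen-presentation genes summed to 13539 CPM in wild-type male 3, against 151 to 1969 CPM in the other 10 libraries. Hepatocyte genes summed to 33177 to 109246 CPM, so liver markers were abundant in every library, with the lowest value in wild-type male 3. The part of these features in the results below was not tested beyond the values given, and genotype in males cannot be told apart from whatever else separates the 3 wild-type male libraries.

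**Figure D1:**
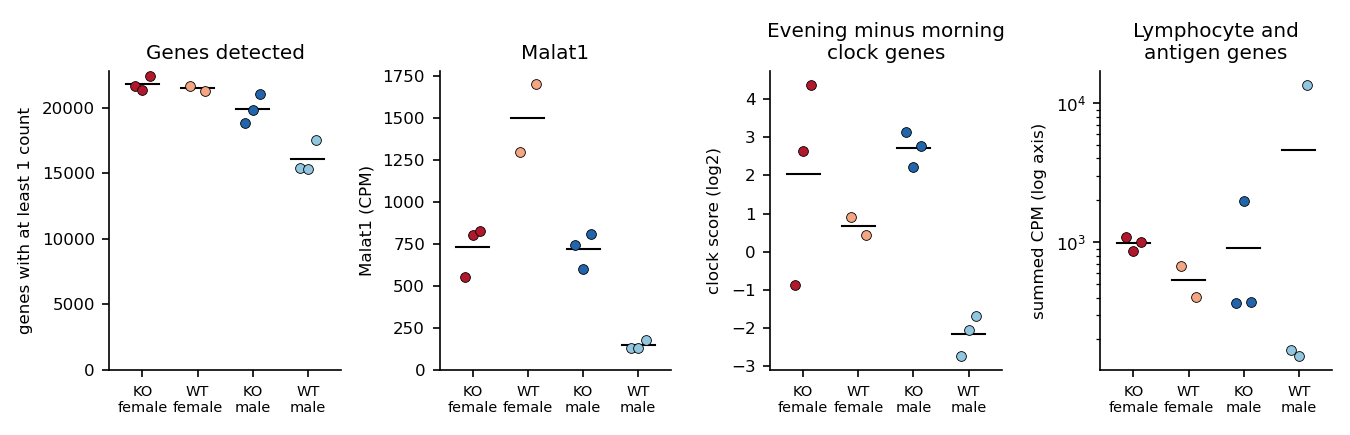
Genes with at least 1 count, Malat1 level in CPM, clock score in log2 units and summed CPM of lymphocyte and antigen-presentation genes (log axis) by group. Each point is 1 library and the line is the group mean; KO is Abcb11-/- (non-tumour tissue in females) and WT is wild type. The 3 wild-type male libraries are lowest for genes detected, Malat1 and the clock score, and 1 of them, wild-type male 3, is highest for lymphocyte genes at 13539 CPM.

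The knockout effect differed between the sexes for 1785 genes outside X and Y at an adjusted p of at most 0.05 (edgeR quasi-likelihood test, Benjamini-Hochberg over all 17389 genes). The difference was positive for 351 and negative for 1434 of them, and 1370 were protein-coding. Over all tested genes, X and Y included, 10.5% were called, 2.04% with a higher and 8.45% with a lower effect in females than in males. The effect in females alone was called for 3.35% of all tested genes, 1.42% higher and 1.93% lower in knockouts. The effect in males alone was called for 19.9%, 13.8% higher and 6.12% lower. With upper-quartile scaling in place of TMM, the split of the difference was 501 positive and 1173 negative, and the median over all genes was 0.08 on the log2 scale, against -0.07 with TMM.

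Leaving out a wild-type female leaves that group with a single library. Falls in that case, here and in the lists below, mix lost replication with the values of the library left out. The count of differing genes moved when single libraries were left out. It was 446 and 607 when wild-type female 3 or wild-type female 2 was left out, 888 without knockout female 1 and 988 without knockout male 1. With the clock score as a covariate it was 216, of which 202 were among the 1785. The groups account for 73.2% of the variance of the clock score, and knockout and wild-type males do not overlap in it. Here and in the lists below, the fit with that covariate cannot fully tell the clock score from genotype in males. Leaving out wild-type male 3, the library rich in lymphocyte genes, gave 2471 calls, 1572 of them among the 1785. With the Malat1 level as a covariate, a choice made after seeing the data, edgeR called 0 genes and 421 had an unadjusted p under 0.05. The groups account for 96.8% of the variance of log2 Malat1, so Malat1 and the groups cannot be told apart in that fit. The count of 574 genes outside X and Y for females alone was 18 and 45 when wild-type females 3 or 2 were left out in turn, 93 without knockout female 3, 149 without knockout female 1, 224 without knockout male 1, 348 without knockout male 2 and 1079 without wild-type male 3. The count of 3372 for males alone was 2175 without knockout male 1 and 2201 without knockout male 3.

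Most of the negative differences belonged to genes that rose in knockout males. Of the 1434, 1034 (72.1%) rose in males and were not called in females, 83 fell in females and rose in males, and 105 fell in females and were not called in males. The other 212 were 203 called in neither sex, 7 that rose in both and 2 that fell in both. Of the 351 positive differences, 220 (62.7%) fell in males and were not called in females, 42 rose in females and were not called in males, and 6 rose in females and fell in males. A further 79 were called in neither sex.

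Among the 1785 genes, as among all tested genes outside X and Y, the group that lay farthest from the other 3 was most often a wild-type group. Taken by mean log2(CPM + 1), wild-type males were low and farthest for 843 of the 1785 genes (47.2%), against 17.5% of all tested genes. Wild-type females were high and farthest for 441 (24.7%), against 17.2% of all tested genes. These were all genes with a negative difference. With a positive difference, wild-type males were high and farthest for 9.69% of the 1785, against 14.8% of all tested genes. Wild-type females were low and farthest with a positive difference for 6.16%, against 14.3%. Knockout and wild-type libraries did not overlap in females for 72.5% of the 1785 genes and in males for 88.6%, where 50.6% and 36% of all tested genes outside X and Y did so. The 1785 were chosen by a test on these same libraries, so shares above those of all tested genes are partly built in. Across the 16875 genes the female and male effects, which share no library but share 1 fit, had a Pearson r of -0.033 and a Spearman rho of -0.061. Both effects were called for 273 genes, with the same sign for 184 and opposite signs for 89. Among gene classes, 10% of 13665 protein-coding genes were called, 13.5% of 609 lincRNAs, 15.2% of 631 antisense genes and 17.9% of 487 genes of unverified type (TEC). Other classes lay lower, with 7.32% of 642 processed pseudogenes and 5.06% of 79 bidirectional promoter lncRNAs called.

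**Figure D2:**
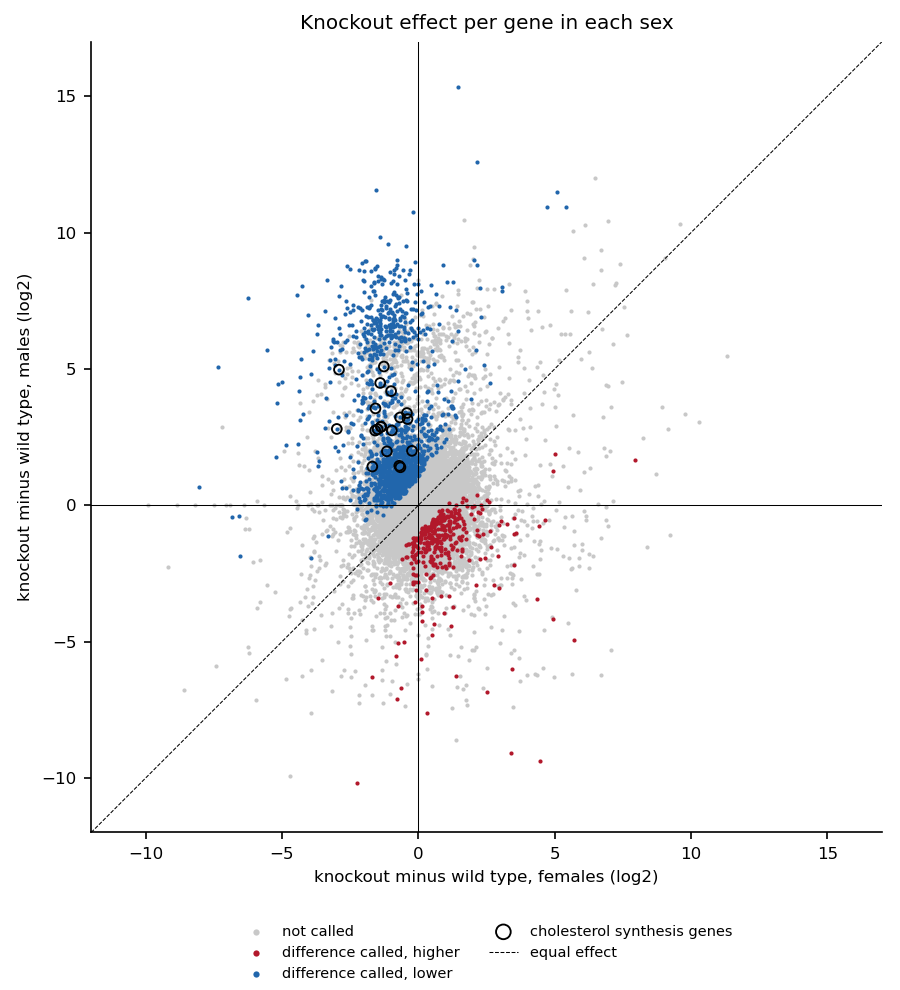
Knockout minus wild type (log2) in females on the horizontal axis and in males on the vertical axis, 1 point per gene outside X and Y (16875 genes), coloured where the difference was called. The dashed line marks equal effects. The 1434 genes with a lower effect in females lie above it, most of them with a male effect over 0, and the 19 circled cholesterol genes are all at the upper left, with a female effect under 0 and a male effect over 0.

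Abcb11 itself (chr2:69238282-69342616, GRCm38, overlapping 2 other genes) fell in both sexes, by more in females. Abcb11 had 21.0, 35.7 and 17.7 CPM in knockout females and 268 and 486 CPM in wild-type females, and 76.2, 61.8 and 103 CPM in knockout males and 307, 322 and 298 CPM in wild-type males. The knockout and wild-type libraries did not overlap in either sex, and knockout males kept more signal than knockout females. It had a female effect of -3.93 ± 0.37 (adjusted p = 0.000829), a male effect of -1.94 ± 0.33 (adjusted p = 0.00201) and a difference of -1.98 ± 0.48 (adjusted p = 0.0221), where ± is the standard error derived from the test. The call for the difference was lost without wild-type female 3 (-1.39, adjusted p = 0.172), knockout female 1, knockout female 3 or knockout male 1. In bulk tissue, fewer cells of a type and less RNA per cell cannot be told apart, here or below.

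All 19 genes of cholesterol synthesis and its regulators differed between the sexes in the same direction. All 19 rose in knockout males, with a median male effect of 2.87. All 19 had a negative female effect, with a median of -1.27, and 4 of them fell by call: Sc5d, Idi1, Hsd17b7 and Fdps. The median difference was -4.24, against -0.07 over all genes outside X and Y. Over all tested genes, X and Y included, 8.45% were called lower. The mean log2 CPM of the list was 4.23 to 5.81 in knockout females and 6.28 to 6.53 in wild-type females, and 6.03 to 6.20 in knockout males and 3.06 to 3.18 in wild-type males. The wild-type males were lowest and the wild-type females highest, with both knockout groups between them.

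Sqle, the squalene epoxidase, gave the smallest p of the list. Sqle had 22.6, 45.7 and 27.97 CPM in knockout females and 68.4 and 59.98 CPM in wild-type females, and 60.3, 66.6 and 49.3 CPM in knockout males and 2.65, 4.07 and 2.97 CPM in wild-type males. There was a female effect of -1.002 ± 0.29 (adjusted p = 0.0782), a male effect of 4.18 ± 0.31 (adjusted p = 2.48e-05) and a difference of -5.19 ± 0.41 (adjusted p = 9.64e-05). Msmo1, a sterol C4 demethylating oxidase, had the most negative difference among list members other than Idi1. Msmo1 had 29.6, 127 and 73.1 CPM in knockout females and 198 and 171 CPM in wild-type females, and 204, 186 and 192 CPM in knockout males and 5.49, 3.22 and 8.31 CPM in wild-type males. Its difference was -6.35 ± 0.68 (adjusted p = 0.000503), made of a male effect of 5.09 ± 0.51 (adjusted p = 0.000124) and a female effect of -1.27 ± 0.47 that was not called (adjusted p = 0.149).

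Idi1, the isopentenyl diphosphate isomerase, moved in opposite directions in the sexes. Idi1 had 0.730, 6.31 and 4.18 CPM in knockout females and 24.8 and 31.4 CPM in wild-type females, and 9.04, 6.84 and 9.03 CPM in knockout males and 0.388, 0 and 0.353 CPM in wild-type males. The knockout libraries were all below the wild type in females and all above it in males. It fell by 2.91 in females (adjusted p = 0.0424) and rose by 4.97 in males (adjusted p = 0.00148), both log2. Fdps, the farnesyl diphosphate synthase, did the same. Fdps had 1.09, 8.38 and 2.11 CPM in knockout females and 26.7 and 34.4 CPM in wild-type females, and 9.93, 10.9 and 6.17 CPM in knockout males and 1.16, 1.001 and 1.66 CPM in wild-type males. Its female effect was -2.99 ± 0.63 (adjusted p = 0.0284) and its male effect 2.80 ± 0.62 (adjusted p = 0.00834).

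Regulators of the pathway followed the enzymes. Srebf2, the transcription factor that drives the pathway, had a difference of -2.05 ± 0.41 (adjusted p = 0.00914). Srebf2 had 41.0, 73.9 and 59.2 CPM in knockout females and 81.0 and 102 CPM in wild-type females, and 73.6, 78.7 and 65.6 CPM in knockout males and 20.8, 23.7 and 38.5 CPM in wild-type males. Insig1, which holds the SREBP proteins in the endoplasmic reticulum, had 39.0, 203 and 83.0 CPM in knockout females, 283 and 361 CPM in wild-type females, 194, 194 and 164 CPM in knockout males and 16.0, 16.4 and 14.6 CPM in wild-type males. Across libraries left out in turn, 14 to 19 of the 19 were called lower, and with the clock score as a covariate 11 were. Idi1, Cyp51, Fdft1, Fdps, Lss, Mvd, Srebf2, Tm7sf2 and Hmgcs1 overlap another gene, and whether reads were counted by strand is not given in the sources used here.

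**Figure D3:**
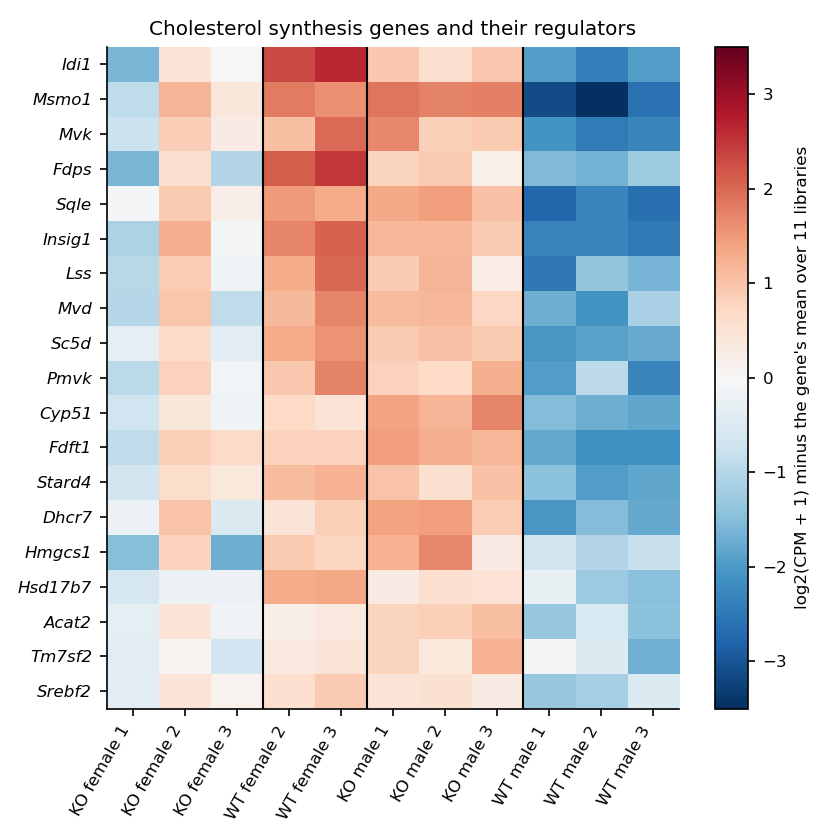
Log2(CPM + 1) of the 19 cholesterol genes in each of the 11 libraries, minus the gene's mean over them, ordered from the most negative difference at the top. The 3 wild-type male columns are below each gene's mean for nearly every gene and the 2 wild-type female columns above it, while knockout female 2 lies above knockout females 1 and 3 for most.

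Promoter windows are shown for genes of this list because its members moved together, and for Cish because it is a textbook STAT5 target. RefSeq windows (GRCm38.p6) run from 250 bases before to 50 after the gene start, 300 bases in all, and 15 of the 19 genes have one. Of 4 motifs searched on both strands, the CCAAT box (CCAAT), bound by NF-Y, was in the first window of 13 of the 15 (86.7%), against 38.3% of 11882 tested genes with a window. The same motif was in 57.9% of 19 growth hormone axis windows and 68.8% of 16 clock gene windows. The sterol element TCACNCCAC was in 1 of the 15 (6.67%), against 1.16% of tested genes. The STAT5 motif TTCNNNGAA was in 4 of 19 growth hormone axis windows (21.1%) against 7.07%, and the E-box CACGTG was in 5 of 16 clock gene windows (31.2%) against 9.63%. Matches of different motifs shared a base in 0 of the 15 cholesterol windows and in 4 of the 11882 tested windows. Mvk (mevalonate kinase, chr5:114444019-114444318, plus strand) and Msmo1 (chr8:64733529-64733828, minus strand) are printed with CCAAT on either strand in capitals, Hmgcs1 (chr13:119690101-119690400, plus strand) with the sterol element in capitals, and Cish (chr9:107296409-107296708, plus strand) with the STAT5 motif in capitals.
Mvk: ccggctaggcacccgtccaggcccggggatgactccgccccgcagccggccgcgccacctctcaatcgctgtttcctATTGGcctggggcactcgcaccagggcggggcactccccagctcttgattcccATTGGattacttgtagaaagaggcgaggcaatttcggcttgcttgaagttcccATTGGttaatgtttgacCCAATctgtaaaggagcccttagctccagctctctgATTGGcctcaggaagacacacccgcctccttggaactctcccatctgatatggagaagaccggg
Msmo1: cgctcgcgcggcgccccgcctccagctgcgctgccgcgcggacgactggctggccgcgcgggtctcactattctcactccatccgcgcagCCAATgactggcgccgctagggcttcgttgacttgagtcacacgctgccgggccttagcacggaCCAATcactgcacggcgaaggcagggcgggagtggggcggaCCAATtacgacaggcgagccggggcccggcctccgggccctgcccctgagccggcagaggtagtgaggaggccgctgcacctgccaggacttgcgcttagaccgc
Hmgcs1: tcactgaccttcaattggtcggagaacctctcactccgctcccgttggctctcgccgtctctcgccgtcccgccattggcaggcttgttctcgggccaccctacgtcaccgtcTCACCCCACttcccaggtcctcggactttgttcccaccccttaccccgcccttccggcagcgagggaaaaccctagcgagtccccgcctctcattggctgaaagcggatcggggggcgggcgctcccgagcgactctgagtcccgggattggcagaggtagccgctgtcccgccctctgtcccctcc
Cish: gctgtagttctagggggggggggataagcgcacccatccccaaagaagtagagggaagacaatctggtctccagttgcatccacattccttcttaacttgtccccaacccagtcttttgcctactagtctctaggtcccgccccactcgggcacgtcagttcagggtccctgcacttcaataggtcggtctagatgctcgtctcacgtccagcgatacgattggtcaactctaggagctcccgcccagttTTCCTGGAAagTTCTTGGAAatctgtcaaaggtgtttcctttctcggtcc
The Mvk window holds 5 CCAAT matches and the Msmo1 window 3, and these genes had differences of -5.88 and -6.35. The Hmgcs1 window holds the list's 1 sterol element match and also 4 CCAAT matches, which are not in capitals. Hmgcs1 had the largest adjusted p of the list, 0.0387. The window of Idi1, which had the most negative difference of the list, holds 2 CCAAT matches. Whether motif matches go with the size of the difference was not tested. A match is a description of letters and not a measured binding site.

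Bile acid synthesis genes were called lower for 4 of 19, against 8.45% of all tested genes, and none was called higher. Cyp7a1, which catalyses the limiting step of the classical route, was low in the wild-type males alone. Cyp7a1 had 103, 235 and 166 CPM in knockout females and 434 and 196 CPM in wild-type females, and 164, 193 and 169 CPM in knockout males and 2.07, 10.7 and 5.95 CPM in wild-type males. This gave a female effect of -0.91 ± 0.53 (adjusted p = 0.354), a male effect of 4.81 ± 0.56 (adjusted p = 0.000245) and a difference of -5.72 ± 0.75 (adjusted p = 0.00132). Akr1d1, the steroid 5-beta-reductase of the pathway, had the smallest p of the list. Akr1d1 had 139.7, 205 and 219 CPM in knockout females and 162 and 129 CPM in wild-type females, and 291, 250.2 and 319 CPM in knockout males and 18.0, 12.9 and 16.2 CPM in wild-type males. The other 8 libraries all lay far above the wild-type males. Its male effect was 4.19 ± 0.28 (adjusted p = 2.13e-05), and its female effect, 0.37 ± 0.28, was not called (adjusted p = 0.485). Cyp2c70, the enzyme that makes muricholic acids in mice, and Akr1c6, a hydroxysteroid dehydrogenase, rose in knockout males by 3.83 and 1.87 and differed by -2.73 and -2.25, all log2. The median difference of the 19 was -0.64. The count was 2 without wild-type female 2 and 2 with the clock score as a covariate.

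Among 10 genes of bile acid and organic anion uptake, Slc10a5 and Slco1a4 had a lower and Slco1a1 a higher effect in females than in males, where 8.45% and 2.04% of all tested genes did. Slc10a5, a member of the sodium bile acid cotransporter family, had 9.64, 18.5 and 14.1 CPM in knockout females and 48.2 and 43.8 CPM in wild-type females, and 19.9, 21.4 and 32.5 CPM in knockout males and 0, 2.001 and 1.36 CPM in wild-type males. It rose in males (male effect 4.45 ± 0.69, adjusted p = 0.00151) and differed by -6.16 ± 0.93. Slco1a1, a male-biased organic anion transporter, fell in males alone by call. Slco1a1 had 13.5, 10.4 and 12.8 CPM in knockout females and 10.5 and 16.4 CPM in wild-type females, and 20.3, 12.8 and 9.48 CPM in knockout males and 57.3, 116 and 79.8 CPM in wild-type males. Knockout males reached the level of both female groups, and the difference was 2.44 ± 0.49 (adjusted p = 0.00992). The related Slco1a4 had a male effect of 2.45 ± 0.36 and a difference of -1.9997 ± 0.51 (adjusted p = 0.0283). The count of 2 lower genes was 1 without any one of knockout females 2 or 3, wild-type females 2 or 3, knockout males 1 or 3 or wild-type males 1 or 3, and the higher one was not called without wild-type female 2. With the clock score as a covariate 1 lower gene was called and the higher one was lost.

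Exporters were called lower for 7 of 16, Abcb11 among them, against 8.45% of all tested genes. Slc51b, a subunit of the basolateral bile acid exporter that bile acids induce, rose in both sexes. Slc51b had 3.96, 10.6 and 13.2 CPM in knockout females and 0.186 and 0.335 CPM in wild-type females, and 24.8, 18.0 and 18.9 CPM in knockout males and 0, 0 and 0 CPM in wild-type males. All 3 wild-type male libraries were at 0 counts, so knockout males were at least 84.2-fold higher, taking the lowest knockout library against a floor of 3 counts per library. In females its effect was 5.08 ± 0.65 (adjusted p = 0.00597), and the adjusted p of the difference was 0.0163. Abcc2, the canalicular exporter of conjugated organic anions, rose in males. Abcc2 had 239, 390.4 and 554 CPM in knockout females and 698 and 896 CPM in wild-type females, and 606, 485 and 533 CPM in knockout males and 174, 247 and 174 CPM in wild-type males. The male effect of 1.45 ± 0.33 was called (adjusted p = 0.00906), the female effect of -1.01 ± 0.35 was not (adjusted p = 0.126), and the difference was -2.46 ± 0.48 (adjusted p = 0.00824). Abcg5 and Abcg8, the partners of the sterol exporter, differed by -1.77 and -2.01. Atp8b1, a canalicular phospholipid flippase, differed by -1.37 and Slc47a1, an organic cation exporter, by -1.77. The count was 3 without knockout female 1, knockout female 3, wild-type female 2 or knockout male 1, it was 0 without wild-type female 3, and it was 2 with the clock score as a covariate.

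The growth hormone and STAT5 axis was called lower for 10 of 21 genes, against 8.45% of all tested genes, and higher for none. Ghr, the growth hormone receptor, fell in females and rose in males. Ghr had 101, 130.3 and 84.1 CPM in knockout females and 433 and 321 CPM in wild-type females, and 161, 137 and 231 CPM in knockout males and 90.0, 81.4 and 62.1 CPM in wild-type males. The wild-type females were highest, and the knockout females overlapped the wild-type males, which were lowest by group mean. It had a female effect of -1.84 ± 0.31 (adjusted p = 0.0136), a male effect of 1.18 ± 0.28 (adjusted p = 0.0121) and a difference of -3.03 ± 0.42 (adjusted p = 0.00162). Cish and Socs2, feedback inhibitors of the receptor, rose in males. Cish had 24.3, 28.9 and 18.5 CPM in knockout females and 25.6 and 28.2 CPM in wild-type females, and 42.2, 28.3 and 28.5 CPM in knockout males and 7.56, 8.15 and 9.42 CPM in wild-type males. Its difference was -2.14 ± 0.35 (adjusted p = 0.00327), that of Socs2 -1.78 ± 0.45 (adjusted p = 0.0263). Stat5a and Foxa1, a pioneer factor, fell in females, with log2 effects of -1.74 and -1.28, with male effects of -0.17 and 0.54 that were not called. Cux2, a transcription factor specific to female liver, was a female gene in both genotypes. Cux2 had 84.8, 118 and 70.2 CPM in knockout females and 158 and 96.7 CPM in wild-type females, and 1.85, 2.26 and 0.673 CPM in knockout males and 0, 0.286 and 0.403 CPM in wild-type males. The lowest female library was far above the highest male one, the male effect was 2.67 ± 0.66 at low levels (adjusted p = 0.0143), and the female effect was not called. Prlr, the prolactin receptor, fell in females alone by call (-1.57, adjusted p = 0.0346), while Esr1, the oestrogen receptor, rose in males (1.70, adjusted p = 0.000742). Onecut1 and Nr3c1, the glucocorticoid receptor, also rose in males and differed by -3.58 and -1.28. The count was 2 with wild-type female 2 left out, 5 with wild-type female 3 left out and 2 with the clock score as a covariate.

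Female-biased genes were called lower for 9 of 34 and higher for 1, Cyp17a1, against 8.45% and 2.04% of all tested genes. Cyp3a16, a steroid-hydroxylating cytochrome P450 with near-identical relatives, carried the clearest pattern. Cyp3a16 had 2.24, 1.42 and 1.66 CPM in knockout females and 184 and 84.2 CPM in wild-type females, and 0.741, 0.728 and 2.58 CPM in knockout males and 0, 0 and 0 CPM in wild-type males. It fell in females, with a log2 effect of -6.23 (adjusted p = 0.00124), and against 0 counts in wild-type males the knockout males were at least 3.39-fold higher. Acot3 and Acot4, acyl-CoA thioesterases, fell in females, with log2 effects of -1.998 and -2.25, and had male effects of 0.20 and -0.15 that were not called. Acot4 had 46.1, 100.04 and 58.1 CPM in knockout females and 382 and 265 CPM in wild-type females, and 89.9, 90.7 and 99.7 CPM in knockout males and 116, 105 and 90.3 CPM in wild-type males. Cyp2a4, a steroid hydroxylase with close relatives, had a male effect of 5.02 ± 0.77 (adjusted p = 0.00129) and a female effect that was not called. Cyp2a4 had 118, 122 and 167 CPM in knockout females and 333 and 209.8 CPM in wild-type females, and 10.2, 2.98 and 6.395 CPM in knockout males and 0, 0 and 0.504 CPM in wild-type males. Its knockout males rose above the wild-type males but stayed under every female library. Nipal1, Slc22a26 and Cyp2a22 differed by -2.97, -2.64 and -3.71. The count of 9 was 3 with wild-type female 2 left out, 5 without wild-type female 3, knockout male 1 or knockout male 2, and 2 with the clock score as a covariate. Cyp17a1 lost its call without knockout female 1, knockout female 2, wild-type female 2, wild-type female 3, knockout male 1, wild-type male 1 or wild-type male 2, and with the clock score as a covariate.

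Male-biased genes were called higher for 4 of 38 and lower for 5, against 2.04% and 8.45% of all tested genes. Elovl3, a fatty acid elongase, fell in males. Elovl3 had 4.53, 9.73 and 1.30 CPM in knockout females and 0.744 and 0.767 CPM in wild-type females, and 54.1, 26.7 and 76.1 CPM in knockout males and 429, 502 and 267 CPM in wild-type males. Knockout males lay between wild-type males and the females, and the difference was 5.69 ± 0.98 (adjusted p = 0.00496). Keg1, for which wild-type males here lay under wild-type females, went the other way and rose in males. Keg1 had 9.54, 12.2 and 9.25 CPM in knockout females and 19.02 and 13.3 CPM in wild-type females, and 92.1, 68.2 and 134 CPM in knockout males and 6.08, 4.93 and 7.91 CPM in wild-type males. Its knockout males were above every other library, with a male effect of 3.96 ± 0.31 (adjusted p = 2.78e-05) and a female effect of -0.65 ± 0.31 that was not called. Mup3, a major urinary protein with near-identical relatives, fell in females. Mup3 had 5.003, 9.14 and 0.718 CPM in knockout females and 542 and 383 CPM in wild-type females, and 699, 141 and 680.3 CPM in knockout males and 2763, 2003 and 826 CPM in wild-type males. It fell by 6.55 in females (adjusted p = 0.0102), while the male effect of -1.88 ± 0.78 was not called (adjusted p = 0.113). Gstp1, a glutathione transferase with near-identical relatives, rose in females by 2.27 (adjusted p = 0.0248) and had a male effect of -0.27 (adjusted p = 0.645). Serpina1e, one of a near-identical serpin family, had 164, 9.08 and 13.02 CPM in knockout females and 22.9 and 31.0 CPM in wild-type females, and 73.0, 118 and 95.8 CPM in knockout males and 3295, 2264 and 583 CPM in wild-type males. Nudt7, Ugt2b1 and Selenbp2 differed by -1.89, -2.77 and -2.27. The count of 4 was 1 without wild-type female 2 or 3, and that of 5 was 1 without either and 2 without knockout female 1, knockout female 3, knockout male 1 or knockout male 3. With the clock score as a covariate, 0 were higher and 2 lower by edgeR.

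Sulfo- and glucuronosyltransferases, which conjugate bile acids, steroids and drugs, were called lower for 8 of 30, against 8.45% of all tested genes, and higher for none. Sult2a8, a sulfotransferase of bile acids in mouse liver, was low in knockout females alone. Sult2a8 had 0.730, 3.83 and 1.30 CPM in knockout females and 219 and 154 CPM in wild-type females, and 258, 185 and 229.7 CPM in knockout males and 281, 357 and 242 CPM in wild-type males. The 3 knockout female libraries were far under all 8 others. It fell by 6.59 in females (log2, adjusted p = 0.000361), the male effect of -0.39 ± 0.42 was not called (adjusted p = 0.561), and the call for the difference held with each library left out. Sult2a7, a close relative whose reads can be shared, fell in females and rose in males. Sult2a7 had 0, 0.177 and 0.0898 CPM in knockout females and 5.58 and 1.05 CPM in wild-type females, and 8.74, 4.07 and 17.4 CPM in knockout males and 0.582, 0.786 and 0.0504 CPM in wild-type males. Papss2, which makes the sulfate donor, and Sult1b1 rose in males by 2.52 and 3.55. Ugt1a6a and Ugt1a5, which share exons, differed by -3.72 and -3.21, Ugt2b1 by -2.77 and Ugt2b37 by -4.29. The count was 4 without knockout female 1 or knockout male 1, 5 without knockout female 2, knockout female 3 or wild-type female 3, 3 without wild-type female 2, and 1 with the clock score as a covariate.

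**Figure D4:**
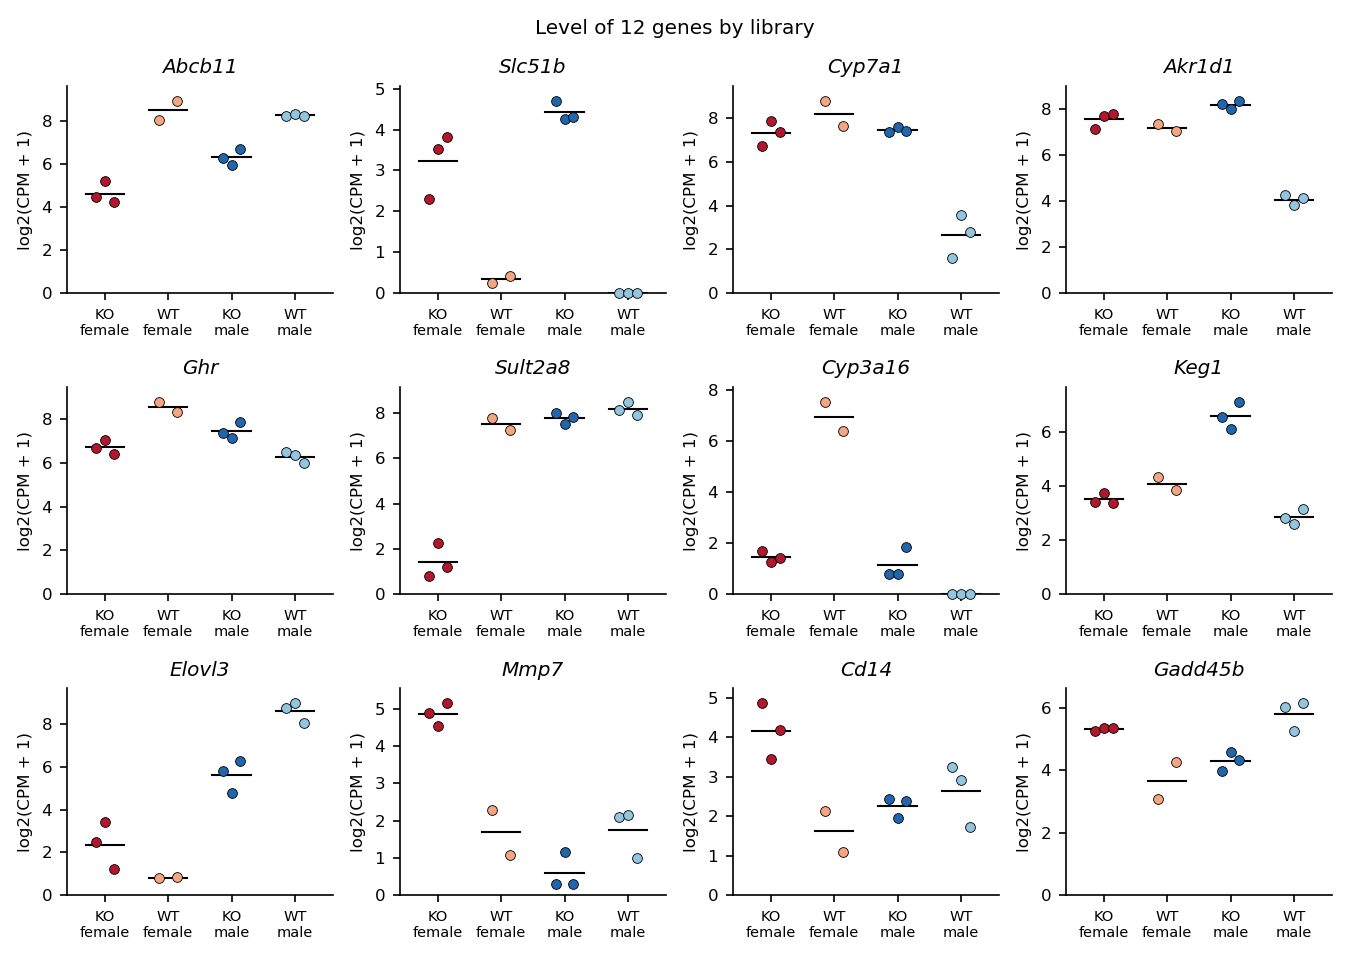
Log2(CPM + 1) of 12 genes by group; each point is 1 library and the line is the mean of the plotted values. Sult2a8 and Abcb11 are lowest in knockout females, Cyp7a1 and Akr1d1 in wild-type males, and Elovl3 is highest in wild-type males.

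Lipogenic genes, mostly targets of Srebf1, were called lower for 11 of 29 and higher for 2, against 8.45% and 2.04% of all tested genes. Srebf1, the transcription factor of the pathway, had 49.9, 198 and 95.4 CPM in knockout females, 202 and 287 CPM in wild-type females, 179, 167 and 75.3 CPM in knockout males and 15.2, 19.7 and 20.1 CPM in wild-type males. It rose in males by 2.94 (adjusted p = 0.00151) and was not called in females. The enzymes Acly, Acss2, Fads1, Fasn and Acaca also rose in males, with male effects of 1.84, 2.80, 2.22, 2.53 and 1.32. Fads2, a fatty acid desaturase, fell in females, with a log2 effect of -1.43 (adjusted p = 0.0313). Thrsp, a lipogenic factor that responds to thyroid hormone, had 59.2, 484 and 41.8 CPM in knockout females and 55.9 and 24.0 CPM in wild-type females, and 888, 440.4 and 767 CPM in knockout males and 3.43, 6.58 and 7.36 CPM in wild-type males. The 2 genes called higher were lipid droplet proteins. Cidea had 0.156, 0.0590 and 0.225 CPM in knockout females and 0 and 0 CPM in wild-type females, and 0, 0 and 0.0561 CPM in knockout males and 5.30, 10.8 and 42.3 CPM in wild-type males. Cidec had 16.9, 12.03 and 4.40 CPM in knockout females, 5.70 and 4.36 CPM in wild-type females, 47.0, 35.5 and 58.4 CPM in knockout males and 116, 149 and 65.9 CPM in wild-type males. Both were highest in wild-type males. Pnpla3, Gpam and Aacs were the other members called lower. The count of 11 was 4 without wild-type female 2 or 3, 6 without knockout female 1, 7 without knockout male 1 or 2, and 1 with the clock score as a covariate. The count of 2 was 1 without knockout female 1, wild-type female 2 or 3, knockout male 1 or 2 or wild-type male 1 or 2, 5 without wild-type male 3 and 1 with the clock score.

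Fatty acid oxidation genes were called higher for 3 of 27 and lower for 1, Ppara, against 2.04% and 8.45% of all tested genes. Ppara, the nuclear receptor that induces the pathway, fell in females. Ppara had 11.9, 18.5 and 19.4 CPM in knockout females and 81.5 and 65.1 CPM in wild-type females, and 27.0, 29.2 and 23.9 CPM in knockout males and 29.2, 28.1 and 16.3 CPM in wild-type males. Its female effect was -2.14 ± 0.29 (adjusted p = 0.00492) and its male effect 0.12 ± 0.26 (adjusted p = 0.78). Acot2, a mitochondrial acyl-CoA thioesterase, fell in males. Acot2 had 21.99, 14.69 and 13.5 CPM in knockout females and 24.2 and 13.9 CPM in wild-type females, and 14.1, 20.0 and 12.96 CPM in knockout males and 133, 125.4 and 93.5 CPM in wild-type males. Wild-type males stood above all other libraries, with a male effect of -2.91 ± 0.30 (adjusted p = 0.00013). Ehhadh, a peroxisomal oxidation enzyme, and Cyp4a31, a fatty acid hydroxylase, also fell in males, with log2 effects of -2.82 and -3.53. In males 10 members fell and 1 rose, against 6.12% and 13.8% of all tested genes, and in females 2 fell, against 1.93%. The count of 3 was 1 without knockout female 1, wild-type female 2 or 3, knockout male 1 or 2 or wild-type male 1 or 2, and 5 without wild-type male 3; lower genes were 2 without knockout female 3. With the clock score as a covariate every call of the list, Ppara included, was lost.

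Glucose and glycogen genes were called lower for 7 of 19, against 8.45% of all tested genes. Pklr, the liver pyruvate kinase, rose in males. Pklr had 32.4, 37.2 and 19.7 CPM in knockout females and 56.0 and 72.5 CPM in wild-type females, and 50.7, 49.3 and 90.4 CPM in knockout males and 5.43, 6.65 and 3.23 CPM in wild-type males. The values gave a female effect of -1.11 ± 0.36 (adjusted p = 0.102), a male effect of 3.64 ± 0.36 (adjusted p = 0.000118) and a difference of -4.76 ± 0.50 (adjusted p = 0.000487). Irs1, an adaptor of the insulin receptor, fell in females and rose in males. Irs1 had 3.18, 4.01 and 6.51 CPM in knockout females and 21.6 and 21.3 CPM in wild-type females, and 4.52, 4.66 and 6.51 CPM in knockout males and 2.39, 0.858 and 1.91 CPM in wild-type males. Slc2a2, the hepatocyte glucose transporter, rose in males by 3.65, as did Ppargc1a, a coactivator of gluconeogenesis, by 2.61 and Ppp1r3b, a glycogen-targeting phosphatase subunit, by 1.47. Ppp1r3c, another such subunit, fell in females, with a log2 effect of -2.02 (adjusted p = 0.031). G6pc, the glucose-6-phosphatase, had a female effect of -2.39 ± 0.60 (adjusted p = 0.0501) and a difference of -2.95 ± 0.81 (adjusted p = 0.0371). The count was 3 with wild-type female 2 left out, 2 with wild-type female 3 left out and 3 with the clock score as a covariate.

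Clock genes were called lower for 7 of 18, against 8.45% of all tested genes. In males 9 rose and 2 fell, against 13.8% and 6.12%. No member was called in females by edgeR, where knockout female 1 lay apart from knockout females 2 and 3. Per3, a period gene, showed it. Per3 had 7.66, 78.3 and 88.1 CPM in knockout females and 81.9 and 60.1 CPM in wild-type females, and 83.9, 95.9 and 61.3 CPM in knockout males and 0, 3.36 and 1.01 CPM in wild-type males. Tef, an output factor of the clock, gave the same order. Tef had 71.5, 275 and 293 CPM in knockout females and 287 and 274 CPM in wild-type females, and 318, 304 and 221 CPM in knockout males and 38.3, 51.6 and 29.6 CPM in wild-type males. Bhlhe40, a clock repressor, was low in the wild-type males and did not set knockout female 1 apart. Bhlhe40 had 60.6, 43.1 and 65.2 CPM in knockout females and 83.9 and 149.5 CPM in wild-type females, and 60.4, 60.4 and 76.9 CPM in knockout males and 12.3, 12.4 and 15.4 CPM in wild-type males. Its difference was -3.35 ± 0.38 (adjusted p = 0.000754). Cry2, Nr1d2, Per2 and Hlf differed by -2.61, -2.66, -2.19 and -1.54. The count was 4 without wild-type female 2 or knockout male 1, 2 with wild-type female 3 left out and 2 with the clock score as a covariate. Per2, Per3, Nr1d2 and Tef are themselves part of the clock score, so the loss of clock gene calls in that fit is partly built in. The labels used here do not give the time of day at which livers were taken.

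Of 30 genes of the NRF2 and glutathione defence, 14 rose in females and 21 in males, against 1.42% and 13.8% of all tested genes. The difference was called lower for 4 and higher for 2, against 8.45% and 2.04%. Gstm1, a glutathione transferase with near-identical relatives, rose in both and by more in males. Gstm1 had 3022, 4036 and 3000.4 CPM in knockout females and 1073 and 671 CPM in wild-type females, and 5838, 5159 and 7659.5 CPM in knockout males and 456, 487 and 316 CPM in wild-type males. Its female effect was 1.94 ± 0.40 (adjusted p = 0.0264) and its male effect 3.89 ± 0.37 (adjusted p = 8.2e-05). Gsta3 and Gstm4 rose in males and differed by -3.09 and -1.98, and Nfe2l2, which encodes NRF2, differed by -1.46 with no call in either sex. Srxn1, the sulfiredoxin, rose in females. Srxn1 had 75.2, 40.6 and 88.3 CPM in knockout females and 17.2 and 13.2 CPM in wild-type females, and 101, 94.3 and 98.5 CPM in knockout males and 93.0, 92.7 and 42.7 CPM in wild-type males. Knockout females lay above the wild-type females and near the males of both genotypes, and the difference was 1.80 ± 0.50 (adjusted p = 0.0394). The 4 lower genes became 1 without knockout female 1, knockout female 3, wild-type female 2, wild-type female 3 or knockout male 1 and 2 without knockout male 3 or wild-type male 3. The 2 higher ones became 0 without wild-type female 2 or 3 and 1 without knockout female 1 or 3, any knockout male, or wild-type male 1 or 2. By edgeR with the clock score as a covariate, 0 were called.

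Macrophage genes had a higher effect in females for 4 of 26 and a lower one for none, against 2.04% called higher over all tested genes. Cd14, the lipopolysaccharide co-receptor of monocytes and macrophages, rose in females. Cd14 had 28.2, 9.97 and 17.2 CPM in knockout females and 3.41 and 1.15 CPM in wild-type females, and 4.44, 2.91 and 4.21 CPM in knockout males and 8.53, 6.58 and 2.32 CPM in wild-type males. Cd14 had a female effect of 3.03 ± 0.66 (adjusted p = 0.0339), a male effect of -0.58 ± 0.53 (adjusted p = 0.477) and a difference of 3.61 ± 0.83 (adjusted p = 0.0189). C1qa, a complement component, and Lgals3, galectin-3, rose in females by 1.94 and 2.59, and Itgam, a myeloid integrin, had a female effect of 2.43 ± 0.81 that was not called. The list summed to 505 to 813 CPM in knockout females and 205 and 255 CPM in wild-type females, and to between 334 and 545 CPM in the knockout males and between 366 and 799 CPM in the wild-type males, the highest being wild-type male 3. The count was 0 without knockout female 1 or wild-type female 3, 1 without wild-type female 2 or knockout male 1, 2 without knockout female 2 or knockout male 2, and 0 by edgeR with the clock score as a covariate. Neutrophil and cytokine genes were called higher for S100a8 and S100a9, subunits of calprotectin, and lower for Cxcl1, a neutrophil chemokine, of 16, against 2.04% and 8.45% of all tested genes. Cxcl1 had 29.7, 43.4 and 18.7 CPM in knockout females and 23.4 and 15.1 CPM in wild-type females, and 16.2, 26.6 and 20.3 CPM in knockout males and 3.04, 2.501 and 3.43 CPM in wild-type males. Cxcl1 was low in wild-type males alone. The 2 calprotectin calls were lost without any one of knockout females 1 or 2, wild-type females 2 or 3, any knockout male or wild-type male 2, 1 was lost without wild-type male 1, and Cxcl1 lost its call without wild-type female 2. Lower calls were 2 without wild-type male 3, and all 3 calls of the list were lost with the clock score as a covariate.

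Biliary genes were called higher for 2 of 20, Mmp7 and Krt7, against 2.04% of all tested genes. Mmp7, a matrix metalloproteinase made by injured bile duct cells, rose in females and fell in males. Mmp7 had 28.4, 22.4 and 34.5 CPM in knockout females and 3.90 and 1.10 CPM in wild-type females, and 0.222, 1.24 and 0.224 CPM in knockout males and 3.30, 3.43 and 1.01 CPM in wild-type males. The knockout females were above every other library, and the difference was 5.72 ± 1.02 (adjusted p = 0.00559). Krt7, a bile duct keratin, had 15.9, 17.3 and 12.1 CPM in knockout females and 4.03 and 2.30 CPM in wild-type females, and 0.296, 2.47 and 1.85 CPM in knockout males and 9.57, 5.36 and 3.43 CPM in wild-type males. Krt19, the keratin paired with it, had a difference of 3.11 ± 0.95 that was not called (adjusted p = 0.0573). The list summed to 3077 CPM in knockout female 1 and to 756 and 852 CPM in knockout females 2 and 3. Its mean log2 CPM was alike in these libraries, at 3.95, 3.90 and 3.91. In wild-type females it summed to 353 and 576 CPM. The sums were between 281 and 614 CPM in the knockout males and between 254 and 319 CPM in the wild-type males. The count was 1 without wild-type female 3, 4 without knockout male 2 or wild-type male 3, and 1 with the clock score as a covariate.

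Endothelial genes were called higher for 3 of 21, against 2.04% of all tested genes, and 8 fell in males, against 6.12%. Egfl7, an endothelial secreted factor, had 35.8, 38.0 and 37.1 CPM in knockout females and 31.0 and 27.1 CPM in wild-type females, and 33.6, 33.3 and 38.0 CPM in knockout males and 109, 123 and 65.1 CPM in wild-type males. Stab1, a scavenger receptor of sinusoidal cells, and Pecam1, an adhesion molecule, likewise fell in males, with log2 effects of -1.64 and -1.19. The wild-type males were highest for each of the 3 genes by group mean. Stellate cell and matrix genes were called higher for 2 of 37, against 2.04% of all tested genes: Timp2, a metalloproteinase inhibitor, at 2.70 and Col4a2, a basement membrane collagen, at 1.94. Col4a1, its partner chain, had a difference of 1.75 ± 0.62 that was not called (adjusted p = 0.0925). Endothelial calls were 0 without wild-type female 3, 7 without wild-type male 3 and 0 by edgeR with the clock score. Stellate calls were 1 without knockout females 1 or 2, wild-type female 2 or knockout males 1 or 3, 0 without wild-type female 3, 7 without knockout male 2 and 1 with the clock score.

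Of 24 genes of the p53 and growth arrest list, 3 were called higher and 1, Bbc3, lower, and of 31 genes of the endoplasmic reticulum stress list 4 were called higher and 1, Ern1, lower. Over all tested genes 2.04% were called higher and 8.45% lower. Gadd45b, a stress-induced growth arrest gene, rose in females and fell in males. Gadd45b had 37.5, 39.8 and 39.7 CPM in knockout females and 7.498 and 18.2 CPM in wild-type females, and 14.96, 22.9 and 19.3 CPM in knockout males and 64.6, 37.2 and 70.1 CPM in wild-type males. It had a female effect of 1.60 ± 0.38 (adjusted p = 0.0424), a male effect of -1.59 ± 0.32 (adjusted p = 0.00552) and a difference of 3.19 ± 0.50 (adjusted p = 0.00284). Cdkn1a, the cell cycle inhibitor p21, fell in males. Cdkn1a had 58.7, 7.61 and 9.56 CPM in knockout females and 5.27 and 15.8 CPM in wild-type females, and 3.78, 3.35 and 4.77 CPM in knockout males and 59.9, 52.8 and 44.3 CPM in wild-type males. Knockout female 1 stood far above the other 2 knockout females, and the female effect was not called. Bax, a cell death gene, differed by 1.19 and Bbc3, another, by -1.55. Ern1, the sensor IRE1-alpha, rose in males. Ern1 had 33.4, 31.3 and 28.1 CPM in knockout females and 50.8 and 45.7 CPM in wild-type females, and 36.9, 39.9 and 50.4 CPM in knockout males and 10.9, 18.2 and 16.9 CPM in wild-type males. Ddit3, the factor CHOP, and Creld2, an endoplasmic reticulum protein, fell in males, with log2 effects of -1.98 and -1.88, and Atf3, a stress-induced factor, rose in females by 2.04. Asns, the asparagine synthetase, was listed at 0 counts in wild-type females and at no more than 5.15 CPM elsewhere. The 3 p53 genes were 1 without wild-type female 2 or 3 and 1 with the clock score, and Bbc3 lost its call without knockout females 1 or 3, either wild-type female or knockout males 1 or 2, and with the clock score. The 4 stress genes were 0 without wild-type female 2 or knockout male 1, 1 without knockout female 1, wild-type female 3 or knockout male 2, 2 without wild-type male 1 and 0 by edgeR with the clock score; lower ones were 2 without wild-type male 3.

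Interferon-induced genes were called lower for 8 of 40 and higher for none, against 8.45% called lower over all tested genes. Ifih1, the RNA sensor MDA5, rose in males. Ifih1 had 15.9, 19.3 and 18.9 CPM in knockout females and 18.0 and 14.2 CPM in wild-type females, and 30.9, 25.2 and 35.9 CPM in knockout males and 10.9, 8.36 and 8.87 CPM in wild-type males. Iigp1, an interferon-inducible GTPase, fell in females and rose in males. Iigp1 had 123, 140.4 and 99.6 CPM in knockout females and 270.2 and 239.8 CPM in wild-type females, and 232, 267 and 263 CPM in knockout males and 161, 112 and 171 CPM in wild-type males. Rsad2, Mx1, Gbp7, Ifit1, Ifit3 and Ifit3b differed by -2.46, -2.49, -2.07, -2.28, -1.84 and -2.99, and reads can be shared between Ifit3 and Ifit3b. The count depended on wild-type male 3: without that library, the one rich in lymphocyte genes, 21 of 40 were called lower. It was 0 and 1 when wild-type females 2 or 3 were left out in turn, 2 without knockout females 1 or 3, 3 without knockout male 2, 4 without knockout males 1 or 3, 5 without wild-type male 1 and 0 by edgeR with the clock score as a covariate.

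**Figure D5:**
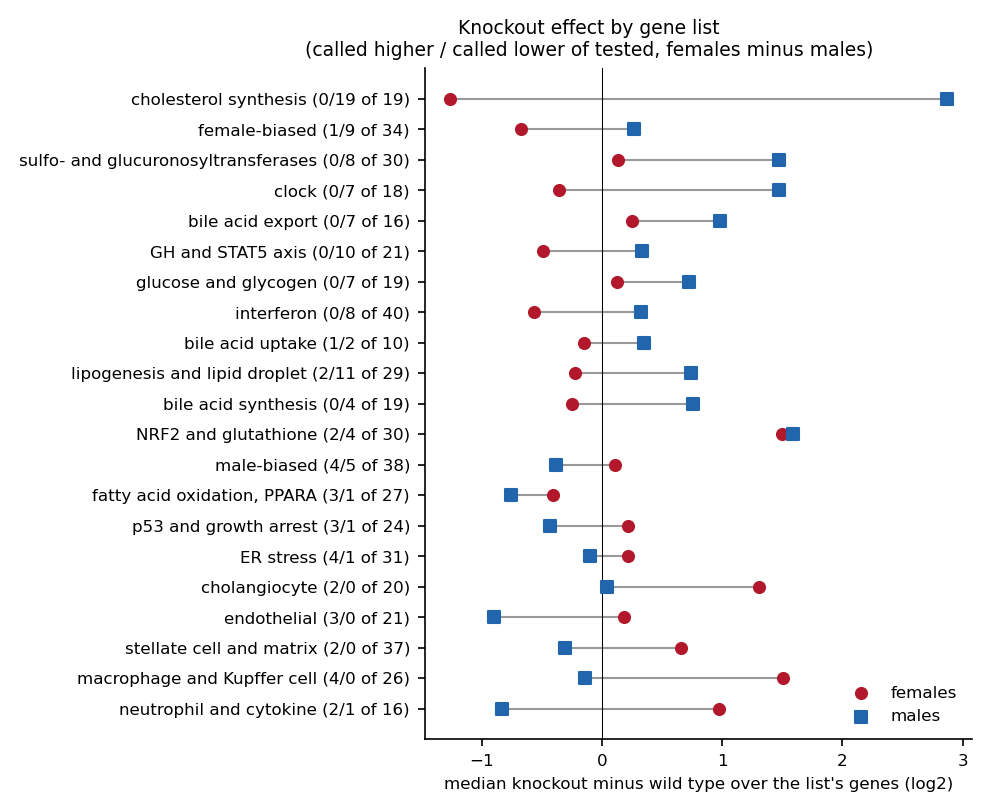
Median knockout effect (log2) over the genes of each list in females (circles) and males (squares), with the number of genes called higher and lower for the difference out of those tested after each name. Cholesterol synthesis has the widest gap, -1.27 in females and 2.87 in males, and the NRF2 and glutathione list has nearly equal medians.

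Among protein-coding genes with at least 5 CPM in the highest group, 1282 were called, and the 15 with the most negative and the 15 with the most positive difference are named here. The ranking is by fitted difference, which has no usable size against a group at 0 counts. Genes with such a group therefore tend to rank at the ends by construction. In 12 of the 15 most negative, all 3 wild-type male libraries were at 0 counts. Ptgds, the prostaglandin D synthase, was one. Ptgds had 2.19, 5.13 and 1.71 CPM in knockout females and 0.496 and 1.63 CPM in wild-type females, and 160.4, 157 and 589 CPM in knockout males and 0, 0 and 0 CPM in wild-type males. Knockout males were at least 732-fold higher, and females of both genotypes had 5.13 CPM or less. Clec2h, a C-type lectin, was another, at least 138-fold higher in knockout males. Clec2h had 0.0521, 0.708 and 3.01 CPM in knockout females and 0.0620 and 0.479 CPM in wild-type females, and 39.3, 29.6 and 63.6 CPM in knockout males and 0, 0 and 0 CPM in wild-type males. Cyp2g1, a cytochrome P450, was at 2.87, 4.19 and 2.96 CPM in knockout females and 12.02 and 5.94 CPM in wild-type females, and its knockout males were at least 25.8-fold higher than the wild-type males. Bounds for 4933411K16Rik, Gm10447, R3hdml, Ptp4a1, Gm38394 and Fam19a2 were 24.1, 15.3, 10.7, 7.80, 7.80 and 5.09, and for Sybu 2.76. Rgr, at 0 in wild-type males, had too few counts in a knockout male library for a bound. Mup19, a major urinary protein, completed the 15 beside Sult2a7, Idi1 and Cyp3a16.

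The most positive differences included genes high in wild-type males alone. Pdgfrl, a PDGF receptor-like protein, had 0.521, 0.354 and 0.404 CPM in knockout females and 0.682 and 0.671 CPM in wild-type females, and 0, 0.146 and 0.393 CPM in knockout males and 19.52, 11.4 and 31.3 CPM in wild-type males. Myom1, a muscle M-band protein, was likewise highest there. Myom1 had 4.74, 2.54 and 4.67 CPM in knockout females and 3.78 and 3.59 CPM in wild-type females, and 5.70, 9.31 and 3.14 CPM in knockout males and 91.5, 96.1 and 49.4 CPM in wild-type males. Fam209, Spon2 and Apoa4, a lipid-transport apolipoprotein, fell in males, with log2 effects of -6.30, -3.40 and -3.33. Tuba8, a tubulin, and Dusp8, a phosphatase of MAP kinases, rose in females instead. Tuba8 had 15.8, 4.13 and 10.2 CPM in knockout females and 0.248 and 0.527 CPM in wild-type females, and 2.74, 2.40 and 6.62 CPM in knockout males and 3.68, 9.08 and 4.54 CPM in wild-type males. They had female effects of 4.65 ± 0.81 (adjusted p = 0.0175) and 3.49 ± 0.71 (adjusted p = 0.0266). Inhbb, an activin subunit, and Gpx3, a secreted glutathione peroxidase, were called in neither sex alone. Gpx3 had 87.6, 41.5 and 388 CPM in knockout females. With single libraries left out, the difference ran from 2.89 to 4.68 for Gpx3 and from 2.79 to 5.08 for Apoa4. It ran from 3.14 to 6.27 for Serpina1e and from -7.78 to -4.83 for Mup19. Of the 30, 15 overlap another gene.

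The other 16 lists are given by their counts, beside the 2.04% called higher and 8.45% called lower over all tested genes. Enzymes induced through the receptors CAR and PXR were called higher for 1 and lower for 4 of 24, urea and amino acid genes higher for 1 and lower for 3 of 31, and apolipoproteins higher for 2 and lower for 1 of 21. Immediate early genes were called higher for 2 and lower for 1 of 18 and adipocyte genes higher for 3 of 4. Hepatocyte identity genes were called lower for 3 of 20, coagulation and complement genes for 3 of 33, pericentral genes for 2 of 18, bile acid sensing genes for 1 of 10, cell cycle genes for 1 of 42, oncofetal genes for 1 of 11 and mitochondrially encoded genes for 1 of 13. Most of these counts moved with single libraries. The 4 lower CAR and PXR genes were 2 without knockout female 1, either wild-type female or knockout male 1, and the higher one became 2 without wild-type male 3. Urea and amino acid genes lost their 3 lower calls without knockout females 1 or 3, either wild-type female or knockout male 1, and the higher one was lost without either wild-type female and became 2 without knockout male 3 or wild-type male 3. The 2 higher apolipoproteins were 1 without knockout female 1, either wild-type female, knockout males 1 or 3 or wild-type males 1 or 2, and the lower one was lost without knockout female 1, either wild-type female or knockout males 1 or 2. Both higher immediate early genes were lost without knockout females 2 or 3, wild-type female 2 or knockout males 1 or 2, and 1 gene was called without knockout female 1, knockout male 3 or wild-type males 1 or 2. The lower one was lost without wild-type female 3 and became 2 without wild-type male 2. The 3 adipocyte genes were 1 without knockout female 1, either wild-type female, knockout male 1 or wild-type males 1 or 2. The 3 hepatocyte genes were 1 without knockout female 3, either wild-type female or knockout male 1. The 3 coagulation and complement calls were all lost without wild-type female 2 and were 1 without wild-type female 3 or knockout male 1. The 2 pericentral genes were 1 without knockout female 3, either wild-type female or knockout males 1 or 2. The bile acid sensing call was lost without wild-type female 3, and the cell cycle count was 2 without knockout female 1 or wild-type male 3. The mitochondrial call was lost without knockout females 1 or 3, either wild-type female, knockout males 1 or 2 or wild-type males 1 or 2, and became 3 without knockout female 2 or wild-type male 3. With the clock score as a covariate 1 higher CAR and PXR gene, 1 higher apolipoprotein, 1 adipocyte, 1 hepatocyte and 1 coagulation gene, 2 pericentral genes and 1 cell cycle gene were called, and no other gene of these 12 lists was. By edgeR, 0 genes were called among 28 acute phase genes, 25 lymphocyte and antigen genes, 4 erythroid genes and 1 pancreatic acinar gene. Of these lists, 2, 2, 3 and 0 genes had an unadjusted p of at most 0.05. DESeq2 called 1, 1, 2 and 0 of them and limma-voom 1, 0, 3 and 0. Without wild-type male 3, edgeR called 1 acute phase gene and all 4 erythroid genes higher and 2 lymphocyte genes lower. Without knockout male 3 it called 1 erythroid gene higher. Acute phase genes summed to 68788 CPM in knockout female 1, against 15993 and 17673 CPM in knockout females 2 and 3, and wild-type male 1 was next at 48223 CPM. Oncofetal genes summed to 245 CPM in knockout female 1, against 81.8 and 65.8 CPM in knockout females 2 and 3.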

How the data were processed

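Liver RNA of 52-week-old mice was sequenced as paired-end Illumina reads, per the labels. Per the submitters' processing notes the tools were HISAT2 2.0.5 and featureCounts 1.5.0-p3, with the GRCm38 build; the strand setting is not given in the sources used here. The authors deposited raw counts per gene (54532 genes) beside 14 FPKM columns, which were not used. From the counts of 11 libraries, 14745140 to 19346354 each, genes were filtered with filterByExpr over the 4 groups, which left 17389. The fit used edgeR 4.0.16 (R 4.3.3) with TMM scaling and the robust quasi-likelihood test, all 4 groups sharing one estimate of spread (biological coefficient of variation 0.444), with Benjamini-Hochberg adjustment over all tested genes and a threshold of 0.05. The standard error is the log2 difference divided by the square root of F. Of the tested genes, 16875 lie outside X and Y. Gene symbols that had turned into dates were restored for 27 genes. With 2 to 3 libraries a group, the p-values measure the spread between these mice only.

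The genes named were Abcb11, every member of a described list called for the difference, the 3 members of each such list with the smallest p, and the 15 protein-coding genes at each end of the difference among those called with at least 5 CPM in the highest group. These genes, the 37 lists (822 members outside X and Y, 821 matched), the 21 lists described in full, the promoters and the motifs were chosen with earlier results of these data known. After the files were seen, Tf was written as Trf and C5 was dropped. Some genes of the cholesterol and clock lists are not reported here and are not counted in them. Where a group had 0 counts, no fitted difference is given in the report; the closing section gives 3, for sign only. Bounds take the lowest library of the higher group over a floor of 3 counts in each library of the other, and cover counting error only. Alternatives were other scalings and filters, DESeq2 1.42.0, limma-voom (limma 3.58.1), all 14 libraries, a replicate block, a clock covariate, each library left out and, added after seeing the data, a Malat1 covariate. The script was tested on simulated counts with known changes.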

Additional observations from a re-analysis of the deposited data

Results flagged for a closer look

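The knockout effect differed between females and males, by the test of the difference itself (edgeR quasi-likelihood test), for 1785 genes outside X and Y. The named genes past the threshold are given here with the female minus the male effect on the log2 scale, each gene once. Among genes of cholesterol synthesis and its regulators the difference was -3.13 for Hmgcs1, -5.88 for Mvk, -4.24 for Pmvk, -4.28 for Mvd, -7.89 for Idi1, -5.79 for Fdps, -3.80 for Fdft1, -5.19 for Sqle, -4.32 for Lss, -3.89 for Cyp51, -2.15 for Tm7sf2, -6.35 for Msmo1, -3.11 for Hsd17b7, -4.26 for Sc5d, -3.56 for Dhcr7, -2.23 for Acat2, -2.05 for Srebf2, -5.12 for Insig1 and -3.72 for Stard4. Among bile acid synthesis genes the difference was -5.72 for Cyp7a1, -3.82 for Akr1d1, -2.25 for Akr1c6 and -2.73 for Cyp2c70. Among bile acid and organic anion uptake genes the difference was 2.44 for Slco1a1, -1.9997 for Slco1a4 and -6.16 for Slc10a5. Among bile acid export genes the difference was -1.98 for Abcb11, -2.46 for Abcc2, -1.77 for Abcg5, -2.01 for Abcg8, -1.37 for Atp8b1 and -1.77 for Slc47a1. Among the growth hormone and STAT5 axis the difference was -3.03 for Ghr, -1.56 for Stat5a, -1.78 for Socs2, -2.14 for Cish, -1.90 for Prlr, -3.15 for Cux2, -3.58 for Onecut1, -1.82 for Foxa1, -1.93 for Esr1 and -1.28 for Nr3c1. Among female-biased genes the difference was -6.01 for Cyp2a4, -3.71 for Cyp2a22, 2.63 for Cyp17a1, -2.97 for Nipal1, -2.64 for Slc22a26, -2.20 for Acot3 and -2.10 for Acot4. Among male-biased genes the difference was -4.67 for Mup3, 5.69 for Elovl3, 2.54 for Gstp1, -2.27 for Selenbp2, 5.62 for Serpina1e, -1.89 for Nudt7, -2.77 for Ugt2b1 and -4.60 for Keg1. Among sulfo- and glucuronosyltransferases the difference was -2.27 for Sult1b1, -9.58 for Sult2a7, -6.20 for Sult2a8, -2.15 for Papss2, -3.21 for Ugt1a5, -3.72 for Ugt1a6a and -4.29 for Ugt2b37. The size for Sult2a7 rests on 0, 3 and 2 counts in knockout females and is uncertain. Among the NRF2 and glutathione list the difference was 1.80 for Srxn1, -3.09 for Gsta3, -1.95 for Gstm1, -1.98 for Gstm4 and -1.46 for Nfe2l2. Among lipogenic and lipid droplet genes the difference was -2.95 for Fasn, -1.55 for Acaca, -2.31 for Acly, -4.03 for Srebf1, -4.62 for Thrsp, -2.15 for Gpam, -2.49 for Fads1, -2.12 for Fads2, -3.21 for Acss2, -2.91 for Aacs and 2.37 for Cidec. Among fatty acid oxidation genes the difference was -2.26 for Ppara, 2.82 for Ehhadh, 3.41 for Cyp4a31 and 2.72 for Acot2. Among glucose and glycogen genes the difference was -2.95 for G6pc, -2.41 for Ppargc1a, -4.76 for Pklr, -2.45 for Slc2a2, -3.82 for Irs1, -2.93 for Ppp1r3b and -2.36 for Ppp1r3c. Among clock genes the difference was -2.19 for Per2, -6.11 for Per3, -2.61 for Cry2, -2.66 for Nr1d2, -3.21 for Tef, -1.54 for Hlf and -3.35 for Bhlhe40. Among macrophage genes the difference was 2.27 for C1qa, 3.61 for Cd14, 4.39 for Itgam and 2.46 for Lgals3. Among neutrophil and cytokine genes the difference was 3.29 for S100a8, 2.82 for S100a9 and -2.14 for Cxcl1. Among biliary genes the difference was 4.23 for Krt7 and 5.72 for Mmp7. Among endothelial genes the difference was 1.61 for Pecam1, 1.89 for Stab1 and 1.85 for Egfl7. Among stellate cell and matrix genes the difference was 1.94 for Col4a2 and 2.70 for Timp2. Among p53 and growth arrest genes the difference was 4.97 for Cdkn1a, 3.19 for Gadd45b, 1.19 for Bax and -1.55 for Bbc3. Among endoplasmic reticulum stress genes the difference was 2.08 for Atf3, 1.80 for Ddit3, 2.54 for Creld2 and -2.11 for Ern1. Among interferon-induced genes the difference was -2.28 for Ifit1, -1.84 for Ifit3, -2.99 for Ifit3b, -2.49 for Mx1, -2.46 for Rsad2, -2.07 for Gbp7, -1.54 for Ifih1 and -1.85 for Iigp1. Among genes named for size alone it was -7.09 for Mup19, 3.83 for Myom1, 3.84 for Inhbb, 3.90 for Spon2, 4.17 for Gpx3, 4.45 for Apoa4, 4.55 for Dusp8, 4.59 for Fam209, 5.19 for Tuba8 and 6.05 for Pdgfrl. Mup19 had 3, 3 and 0 counts in knockout females and Pdgfrl 0, 2 and 7 in knockout males, so these 2 sizes are uncertain. For genes with a group at 0 counts, the adjusted p of the difference by edgeR was 0.00215 for Ptgds, 0.000354 for Cyp3a16, 0.000354 for Cyp2g1, 0.00147 for 4933411K16Rik, 0.0015 for Ptp4a1, 0.0428 for Clec2h, 0.00501 for R3hdml, 0.00169 for Gm38394, 0.00114 for Gm10447, 0.0162 for Rgr, 0.00601 for Sybu, 0.00251 for Fam19a2, 0.00332 for Cidea, 0.0163 for Slc51b, 0.0276 for Pnpla3 and 0.025 for Asns.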

How the results depend on the processing

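The count of 1785 genes with a sex difference was 1689 with RLE scaling, 1674 with upper-quartile scaling, 1693 without mitochondrially encoded genes, 1705 with a filter of 1 CPM and 1902 with all 14 libraries in the fit. It was 2680 with no filter on low counts, 2806 with DESeq2, 3158 with limma-voom, 1034 with the replicate block, 216 with the clock score as a covariate and 0 by edgeR with Malat1 as a covariate, where 421 had an unadjusted p under 0.05. With single libraries left out it was 446 to 2471. The count of 574 in females was 1622 with no filter, 1814 with DESeq2, 3129 with limma-voom, 109 with the replicate block, 203 with the clock score and 1 with Malat1 (1041 unadjusted), and 18 to 1079 with single libraries left out. The count of 3372 in males was 87 with the clock score and 0 by edgeR with Malat1 (592 unadjusted), and 2175 to 3863 with single libraries left out. Leaving out 1 wild-type female leaves the other assumed to vary like the other groups. Whether equal replicate numbers pair the samples could not be decided. Deviations from group means correlated from -0.399 to 0.419 in same-number pairs, and 4 of 15 exceeded 0.1. In pairs of unlike number they correlated from -0.531 to 0.405, and 11 of 30 exceeded 0.1. Within groups this small the deviations of libraries are tied to each other, which limits the check. The replicate block kept 110 of the 154 named calls.

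Of the 154 named genes called, 52 kept the call with each library left out, 33 under every alternative but Malat1 and 0 under all of them. The clock score kept 42. Groups accounted for 73.2% of the variance of the clock score and 96.8% of that of log2 Malat1, so the Malat1 fit holds little variation that the groups do not share. It lost the call for 118 and turned the sign for 36, and for Krt19 and Col4a1, which were not called: 0.70 for Abcb11, 5.10 for Clec2h, 4.56 for Rgr, 0.22 for Idi1, -1.04 for Myom1, -2.33 for Spon2, -0.52 for Krt7, -8.76 for Apoa4, -1.29 for Cdkn1a, -10.53 for Serpina1e, -2.47 for Mmp7, 0.33 for Mvd, 1.13 for Srebf2, 0.16 for Abcc2, 0.25 for Slc51b, 0.086 for Abcg8, 0.19 for Nr3c1, 1.20 for Gsta3, -1.10 for Srxn1, 0.83 for Acss2, 0.59 for Thrsp, -2.08 for Cidec, -1.63 for Acot2, -5.40 for Cyp4a31, 0.81 for Slc2a2, 0.90 for Ppp1r3b, 0.33 for Cry2, 0.042 for Nr1d2, 1.69 for Per2, -3.53 for Cd14, -2.77 for S100a9, -3.75 for S100a8, -4.81 for Krt19, -0.71 for Stab1, -0.52 for Col4a1, -0.43 for Bax, -0.86 for Ddit3 and 0.98 for Ifit3. The values for Clec2h, Rgr and Slc51b are fitted against wild-type males at 0 counts and have no usable size. No other alternative turned a sign, and the cause was not tested.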
